A study of Mus musculus with 6 samples.

Results

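The genes described here are 43 interferon-stimulated genes (ISGs), a list of transcripts that cells make more of when interferon reaches them, read in 3 mouse embryonic fibroblast (MEF) lines by sequencing of polyadenylated RNA. All 43 symbols were found among the 27179 genes of the count tables, and the 40 genes with at least 60 counts summed over the 6 libraries were compared. Rsad2 (24 counts in all), Oas1g (23) and Oasl1 (11) were below that limit, and Zbp1 (60) and Ifitm1 (62) were the members just above it. The CPN-/- line was made by knockout of Cry1, Cry2, Per1, Per2, Nr1d1 and Nr1d2, which encode repressor proteins of the circadian clock. The CPN-/- CRY1 and CPN-/- CRY2 lines are the same knockout with exogenous mouse CRY1 or CRY2 put back by a viral vector and selected with blasticidin as single colonies, so each stands for 1 clone. No line was treated, and each was sequenced as 2 independent RNA preparations, so that the tests measure the spread between preparations of a line and not between clones. The comparisons ask how transcript levels differ between these lines, in which PER and NR1D proteins are absent. No line with an empty vector is among the libraries. In the comparisons with CPN-/-, the CRY protein therefore cannot be told apart from the viral vector, the selection or the cloning. In the direct comparison of the CRY lines, CRY1 against CRY2 cannot be told apart from 1 clone against another.

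Interferons bind receptors at the cell surface whose kinases phosphorylate STAT proteins, STAT2 among them. With IRF9 these form a complex that enters the nucleus and binds the interferon-stimulated response element (ISRE) before the ISGs, many of which encode sensors of foreign nucleic acid, enzymes that stop translation or degrade RNA, and proteins that block viral entry or budding. Fibroblasts keep a low level of many ISGs without any infection. CRY proteins act in the nucleus as repressors of CLOCK and BMAL1, a pair of transcription factors that binds the E-box.

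The libraries held 25957409 to 36106949 counts in genes. Cry1 was highest in the CPN-/- CRY1 line at 165 and 189.6 CPM (counts scaled to the size of the library) against 125 and 115 CPM in CPN-/-, and Cry2 was highest in the CPN-/- CRY2 line at 349 and 351 CPM against 136 and 129 CPM. In the line that did not receive it, each was below CPN-/- (Cry1 at 51.0 and 48.3 CPM in the CRY2 line, Cry2 at 50.7 and 51.7 CPM in the CRY1 line). The other 4 knocked-out genes were read at 63.1 to 118 CPM in CPN-/-. RNA levels therefore do not check the knockout. Of 11 leukocyte markers, 7 had at most 10 counts in every library, Tyrobp and Cd3e among them at 0. The others were Cd14 (218 to 379 counts), Lyz2 (31 to 153), Cd68 (44 to 65) and Fcer1g (6 to 17). The summed level was 15.3 and 18.8 CPM in CPN-/-, 17.2 and 16.4 CPM in the CRY1 line and 13.5 and 11.6 CPM in the CRY2 line. The CRY2 line was the lowest of the 3, and the part of this level in the results was not tested. The 10 fibroblast markers summed to 11210 to 17820 CPM, while Thy1 had at most 7 counts and Dcn at most 61 in any library. In bulk RNA a change in the number of cells that express a gene cannot be told from a change in its level per cell.

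The ISRE and the E-box were looked for in RefSeq promoters of GRCm38.p6, the build named mm10 in the submitters' notes, from 250 bases before to 50 bases after each annotated start. A promoter sequence was at hand for 30 of the 40 members. The ISRE (letters GAAANNGAAA, or TTTCNNTTTC on the other strand) was present in 16 of these 30 members (53.3%) and in 3.99% of all 27025 genes with a promoter sequence. The E-box (CACGTG, the same on both strands) was present in 1 of 30 members, Trim25, and in 8.09% of all genes. Among the 10411 tested genes with a promoter sequence it was present in 11.6%. E-boxes outside this window were not looked for. The gamma-activated site (TTCNNNGAA, the same on both strands, an element of the interferon gamma response) was present in 9 of 30 members (30%) and in 9.55% of all genes. Each window here holds a match in capitals with 10 bases on each side, and lies before the gene it is named for and in no annotated gene; they are shown because the genes behind the same element took different courses in the CRY1 line, as given further on. An ISRE match is a match of letters and not a measured binding site.
Stat2, chr10:128270266-128270295, plus strand: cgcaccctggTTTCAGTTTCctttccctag
Isg15, chr4:156200871-156200900, minus strand: gtaggaaaagGAAACCGAAAcagaaaatag
Ifit1, chr19:34640794-34640823, plus strand: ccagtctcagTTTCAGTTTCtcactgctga
Oas3, chr5:120777715-120777744, minus strand: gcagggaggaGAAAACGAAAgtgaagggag
Bst2, chr8:71537577-71537606, minus strand: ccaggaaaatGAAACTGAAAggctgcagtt
Gbp7, chr3:142530273-142530302, plus strand: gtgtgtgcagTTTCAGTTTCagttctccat
For comparison, the E-box match of Trim25 stands in this window.
Trim25, chr11:88999345-88999370, plus strand: cccagggaccCACGTGacttcctgaa
Of the 13 members with a promoter sequence that rose in the CRY1 line, 5 held an ISRE match (38.5%), of the 3 that fell 1 did, and of the 14 that did not pass the test there 10 did (71.4%). Stat2 is the member of the ISRE windows shown that rose, while Isg15, Ifit1, Oas3, Bst2 and Gbp7 did not pass. Oas1a also rose and holds ISRE matches before its start, and Ddx58, Ifih1 and Eif2ak2 rose with a match after theirs. Members without a promoter sequence are Usp18, Mx2, Rtp4, Parp9, Parp14 and Oas2, which rose, Zbp1, which fell, and Dhx58, Mx1 and Ifi27. The shares do not cover them, and the difference between the shares was not tested.

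In the CPN-/- CRY1 line, 19 of the 40 members were higher than in CPN-/- at an adjusted p under 0.05, 4 were lower and 17 did not pass. Of all 14069 tested genes, 11.2% were higher and 13.1% lower in the same comparison. The median log2 fold change of the members was 0.45, against -0.01 over all tested genes. Members that rose included the transcription factor genes Irf7 and Stat2, the RNA sensor genes Ddx58 and Ifih1, Oas2, Usp18, Mx2 and the trio Parp9, Dtx3l and Parp14. Irf1, Zbp1, Ifitm1 and Ifitm2 fell. Zbp1 and Ifitm1 reached the limit of 60 counts through the CPN-/- libraries, where they were highest. That limit therefore favoured a lower call for them, and their falls are no independent support. The tests are edgeR's quasi-likelihood test over all 14069 genes with Benjamini-Hochberg adjustment, and values are CPM scaled by TMM unless stated otherwise.

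By the same edgeR test, 0 of the 40 members were higher in the CPN-/- CRY2 line than in CPN-/- and 4 were lower. These were Irf1, Zbp1, Isg20 and Gbp2, and the limit on counts favoured a lower call for Zbp1 here too. Of all tested genes, 2.58% were higher and 4.08% lower. At an unadjusted p under 0.05, 7 members were higher and 8 lower, against 11.6% and 12.8% of all tested genes, and the DESeq2 Wald test called 1 higher and 5 lower, against 4.08% and 4.51%. The median log2 fold change of the members was 0.08. With each library's trend with transcript length removed, 7 members were higher and 6 lower in the CRY2 line (9.68% and 6.35% of all tested genes), so 53.8% of its member calls were higher in place of 0%, and over all genes the share of higher calls went from 38.7% to 60.4%. The count for the CRY2 line therefore depends on that setting.

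Set against each other, the lines differed in 17 members. The CRY1 line was higher than the CRY2 line in 15 members and lower in 2 (Mx1 and Ifi44), where 7.72% of all tested genes were higher and 8.57% lower. The median log2 difference of the members was 0.49. Of the 19 members that rose over CPN-/- in the CRY1 line, 13 were also higher there than in the CRY2 line, and 6 were not past the threshold in that direct test (Stat2, Ddx58, Eif2ak2, Trim25, Mx2 and Cmpk2). By mean CPM, 26 of the 40 members were highest in the CRY1 line, 9 in CPN-/- and 5 in the CRY2 line. The same count over all tested genes was not taken. The CRY1 means also hold a replicate 1 that was above replicate 2 for 38 of the 40 members. The comparisons with CPN-/- share the CPN-/- libraries, and the direct test of CRY1 against CRY2 uses neither of them for its means. That direct test does reuse the 2 CRY1 libraries in which the 19 were found higher. The 13 are therefore no independent support for the rise, and the matching share over all tested genes was not taken.

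**Figure D1:**
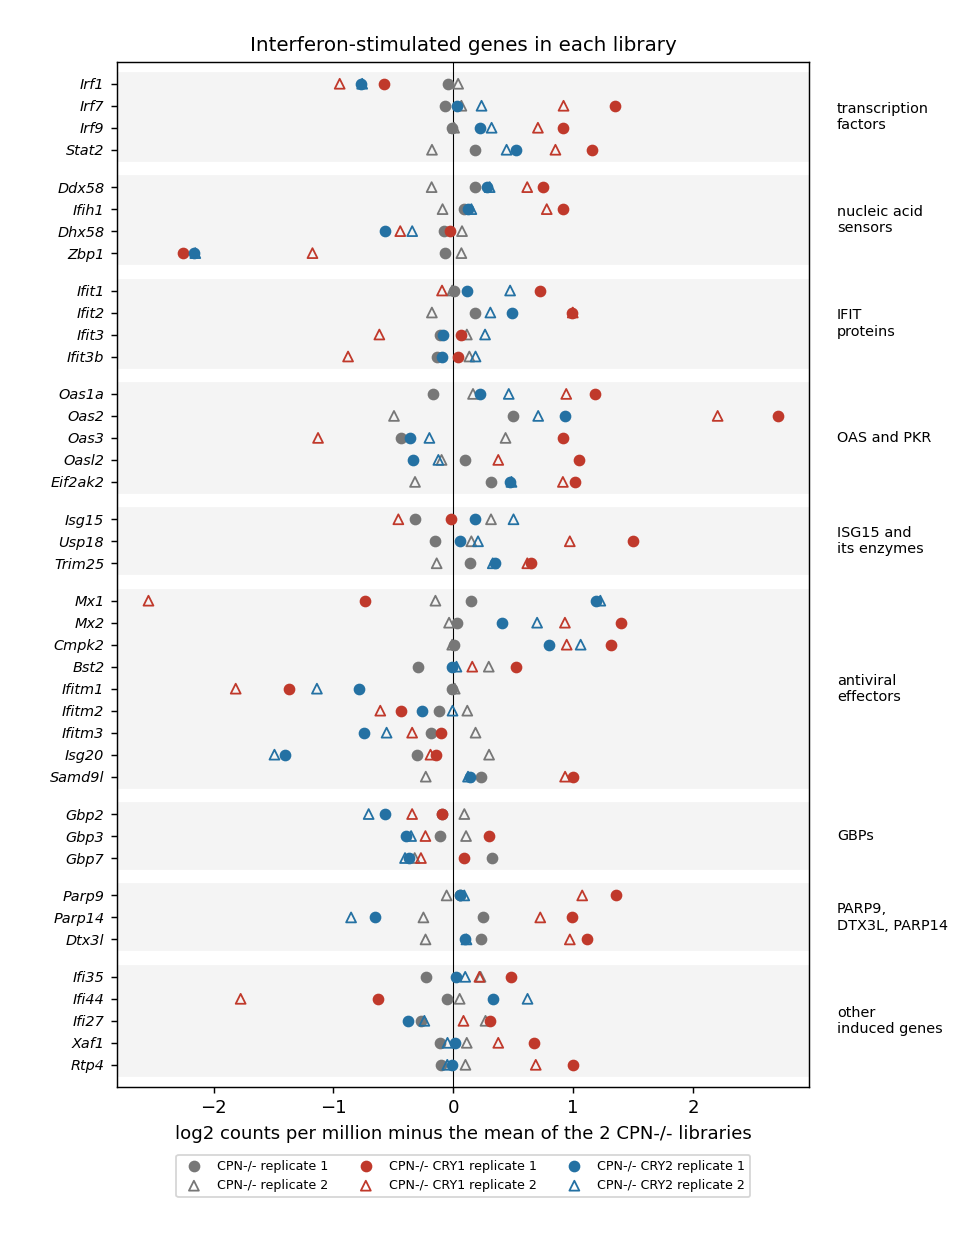
Level of each of the 40 members in each of the 6 libraries, as log2 CPM minus the mean of the 2 CPN-/- libraries (x axis), grouped by role. Circles are replicate 1 and triangles replicate 2. Red symbols (CPN-/- CRY1) stand to the right for Oas2, Usp18, Parp9, Irf7 and others, and to the left for Mx1, Zbp1, Ifi44 and Ifitm1, while blue symbols (CPN-/- CRY2) lie mostly near the grey CPN-/- symbols.

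**Figure D2:**
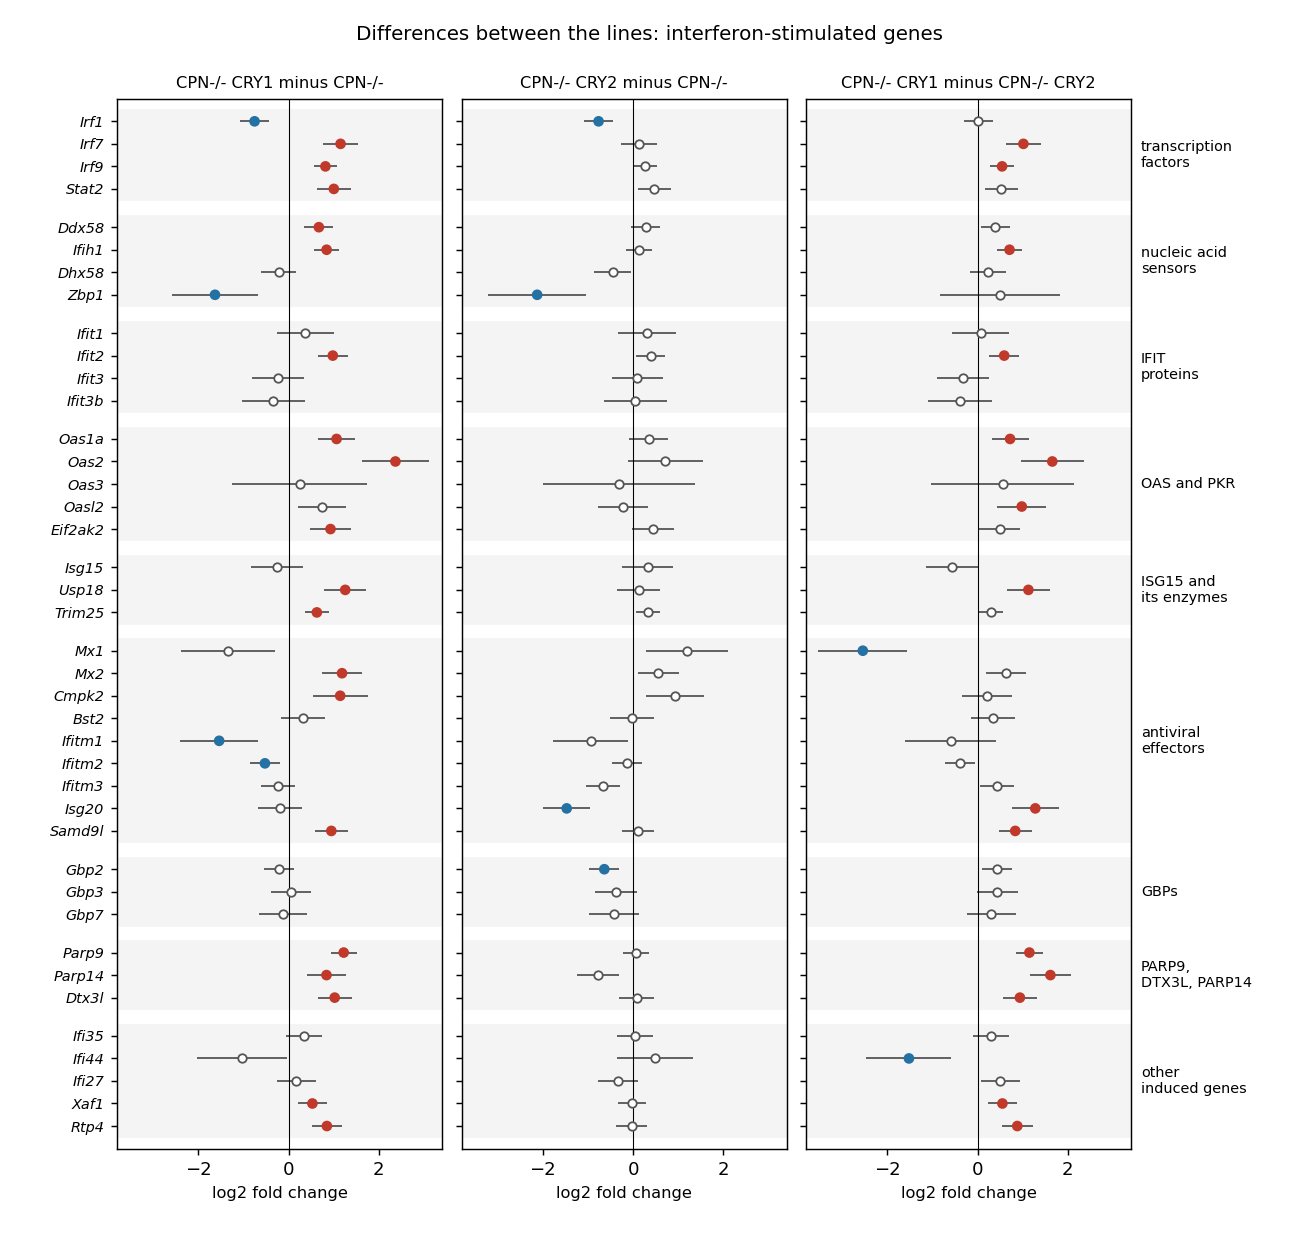
Log2 fold change (x axis) of each member in the 3 comparisons, with 95% intervals from the edgeR fit. Filled points passed an adjusted p of 0.05, red for higher and blue for lower. The left panel holds 19 red and 4 blue points, the middle panel 0 and 4, and the right panel 15 and 2.

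Among the transcription factor genes of the response, 3 of 4 rose in the CRY1 line. Irf7 (chr7:141263183-141266499 on GRCm38, NCBI Gene 54123), which amplifies the production of interferon, was read at 16.7 and 18.3 CPM in the CPN-/- libraries, at 44.6 and 33.1 CPM in the CRY1 line and at 17.9 and 20.6 CPM in the CRY2 line. Both CRY1 libraries lay above all 4 others. Irf7 was 2.22 times its CPN-/- level in the CRY1 line (log2 fold change 1.15 ± 0.17 SE, adjusted p = 0.00488) and 2.02 times its CRY2 level (log2 fold change 1.02 ± 0.17 SE, adjusted p = 0.00910). Stat2 (chr10:128270498-128292853), the STAT that is particular to the ISRE-binding complex, stood at 77.6 and 60.6 CPM in CPN-/-, 153 and 124 CPM in the CRY1 line and 98.7 and 93.4 CPM in the CRY2 line. The 3 lines did not overlap, in the order CRY1, CRY2 and CPN-/- from high to low. Stat2 rose in the CRY1 line (log2 fold change 1.00 ± 0.16 SE, adjusted p = 0.00633), while the CRY2 line did not pass against CPN-/- (log2 fold change 0.47, adjusted p = 0.133), nor did the 2 CRY lines against each other (log2 difference 0.53, adjusted p = 0.0621). Irf9, the DNA-binding partner of the STATs, was at 30.4 and 30.7 CPM in CPN-/-, 57.8 and 49.9 CPM with CRY1 and 35.7 and 38.1 CPM with CRY2. It rose in the CRY1 line (log2 fold change 0.82 ± 0.11 SE, adjusted p = 0.00381) and was higher there than in the CRY2 line (log2 difference 0.54, adjusted p = 0.0184). Irf1, a factor induced above all by interferon gamma, went the other way and fell in both CRY lines. Its levels were 58.3 and 61.7 CPM in CPN-/-, 40.1 and 31.1 CPM in the CRY1 line and 35.3 and 35.4 CPM in the CRY2 line. The 2 CRY lines lay below CPN-/- and overlapped each other. Irf1 was 1.68-fold lower with CRY1 (log2 fold change -0.75 ± 0.13 SE, adjusted p = 0.0103) and 1.70-fold lower with CRY2 (log2 fold change -0.76 ± 0.14 SE, adjusted p = 0.0215).

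Of the 4 sensor genes, Ddx58 (RIG-I) and Ifih1 (MDA5), which detect viral RNA in the cytoplasm, rose in the CRY1 line. Ddx58 was the most abundant of them at 89.4 and 69.6 CPM in CPN-/-, 133 and 121 CPM in the CRY1 line and 96.1 and 97.4 CPM in the CRY2 line. Every CRY1 library was above every other. Ddx58 rose over CPN-/- (log2 fold change 0.67 ± 0.13 SE, adjusted p = 0.0147), but the direct test against the CRY2 line did not pass (log2 difference 0.39, adjusted p = 0.0988). Ifih1 was read at 12.6 and 11.2 CPM, 22.4 and 20.4 CPM and 13 and 13.2 CPM in the same order of lines. It rose over CPN-/- (log2 fold change 0.84 ± 0.12 SE, adjusted p = 0.00438) and over the CRY2 line (log2 difference 0.71, adjusted p = 0.00945). Dhx58 (LGP2), a regulator of both sensors, did not pass in any comparison and had log2 fold changes of -0.22 with CRY1 and -0.45 with CRY2. Zbp1, which senses Z-form nucleic acid and can start necroptosis, fell in both lines from low counts. It had 20 and 18 counts in the CPN-/- libraries, 5 and 9 in the CRY1 line and 4 and 4 in the CRY2 line. The log2 fold changes were -1.63 ± 0.40 SE with CRY1 (adjusted p = 0.0282) and -2.12 ± 0.46 SE with CRY2 (adjusted p = 0.0414), and neither held in the DESeq2 Wald test.

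The IFIT genes lie in a row on chromosome 19 and encode proteins that bind RNA lacking the marks of host messenger RNA. Only Ifit2 of the 4 passed. Its levels were 51.1 and 39.9 CPM in CPN-/-, 89.5 and 90.1 CPM in the CRY1 line and 63.3 and 55.9 CPM in the CRY2 line. The CRY1 libraries were the highest and the CRY2 libraries also lay above CPN-/-, with a log2 fold change of 0.98 ± 0.14 SE with CRY1 (adjusted p = 0.00465) and 0.39 with CRY2 (adjusted p = 0.156). Its neighbour Ifit1, often used as a readout of the interferon response, stood at 8.77 and 8.67 CPM in CPN-/-, 14.4 and 8.17 CPM in the CRY1 line and 9.44 and 12.1 CPM in the CRY2 line. The CRY1 libraries of Ifit1 fell on either side of the rest, and its interval in the CRY1 line ran from -0.26 to 1.01 on the log2 scale. Ifit3 and Ifit3b had log2 fold changes of -0.23 and -0.34 with CRY1. Their transcripts share 1700 aligned bases at 97.8% identity, so reads of the pair are uncertain between them.

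Among the oligoadenylate synthetases, which make a second messenger of antiviral defence, Oas2 showed the greatest rise of any member. Oas2 (chr5:120730333-120749886, NCBI Gene 246728) was read at 1.98 and 0.998 CPM in CPN-/-, 9.19 and 6.49 CPM in the CRY1 line and 2.68 and 2.30 CPM in the CRY2 line. The CRY1 libraries lay far above the others, and the CRY2 libraries a little above CPN-/-. Oas2 was 5.16 times its CPN-/- level in the CRY1 line (log2 fold change 2.37 ± 0.31 SE, adjusted p = 0.00370) and 3.15 times its CRY2 level (log2 fold change 1.66 ± 0.30 SE, adjusted p = 0.0125). Oas1a rose as well, from 4.24 and 5.33 CPM in CPN-/- to 10.8 and 9.15 CPM with CRY1, against 5.55 and 6.56 CPM with CRY2. The log2 fold change was 1.06 ± 0.18 SE (adjusted p = 0.00767), and 0.72 over the CRY2 line (adjusted p = 0.0328). Oas1a shares 1861 aligned bases at 97.6% identity with Oas1g, which had 23 counts in all, so its reads are uncertain between the pair. Oasl2 was at 13.3 and 11.6 CPM in CPN-/-, 25.7 and 16.1 CPM with CRY1 and 9.85 and 11.4 CPM with CRY2. It was higher in the CRY1 than in the CRY2 line (log2 fold change 0.98 ± 0.23 SE, adjusted p = 0.0301) but did not pass against CPN-/- (log2 fold change 0.75, adjusted p = 0.0517). Oas3 had 79 counts in all, and its interval in the CRY1 line ran from -1.25 to 1.74. Eif2ak2 encodes PKR, the kinase that stops translation when it meets viral RNA, and was the most abundant gene of this group at 74.5 and 47.9 CPM in CPN-/-, 121 and 113 CPM with CRY1 and 82.8 and 83.7 CPM with CRY2. It rose in the CRY1 line (log2 fold change 0.93 ± 0.19 SE, adjusted p = 0.0167). The CRY2 libraries lay between the other lines without passing against either of them, 0.44 above CPN-/- (adjusted p = 0.218) and with the CRY1 line 0.49 above them on the log2 scale (adjusted p = 0.139).

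Isg15, the ubiquitin-like modifier that gave the gene class its name, did not pass in any comparison. Its levels were 20.3 and 31.4 CPM in CPN-/-, 25.0 and 18.4 CPM in the CRY1 line and 28.7 and 35.8 CPM in the CRY2 line. The lines overlapped, apart from CRY1 lying below CRY2, with a wide interval in the CRY1 line (log2 fold change -0.25 over CPN-/-, interval -0.83 to 0.33); with the length trend removed Isg15 passed in the CRY2 line (log2 fold change 0.58, adjusted p = 0.0322). Of the genes for ISG15's own conjugation, the activating enzyme gene Uba7, the conjugating enzyme gene Ube2l6 and the ligase gene Herc6 did not pass in the CRY1 line over CPN-/- (log2 fold changes 0.56, 0.14 and 0.19). Against the CRY2 line, Uba7 and Ube2l6 were higher with CRY1 (log2 differences 0.92 and 0.72, adjusted p = 0.0221 and 0.0309), while Herc6 did not pass (0.10). Usp18 encodes the protease that takes ISG15 off its targets and also damps signalling from the interferon receptor. It was read at 12.6 and 15.6 CPM in CPN-/-, 39.7 and 27.5 CPM in the CRY1 line and 14.6 and 16.2 CPM in the CRY2 line. Both CRY1 libraries were above the rest, although they differed among themselves, and Usp18 rose over CPN-/- (log2 fold change 1.26 ± 0.20 SE, adjusted p = 0.00668) and over the CRY2 line (log2 fold change 1.13 ± 0.20 SE, adjusted p = 0.0116). Trim25, a ubiquitin ligase that acts on RIG-I and the member whose promoter holds the E-box match, was at 82.5 and 68.1 CPM, 118 and 115 CPM and 95.4 and 94.2 CPM in the order CPN-/-, CRY1 and CRY2. It rose in the CRY1 line (log2 fold change 0.63 ± 0.11 SE, adjusted p = 0.0107) and did not pass in the CRY2 line (log2 fold change 0.33, adjusted p = 0.147).

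The 9 tested genes for antiviral effectors moved in several directions. Mx1 and Mx2, neighbours on chromosome 16 that encode dynamin-like GTPases, parted. Mx2 was read at 9.02 and 8.60 CPM in CPN-/-, 23.2 and 16.8 CPM in the CRY1 line and 11.6 and 14.3 CPM in the CRY2 line. The lines did not overlap, and Mx2 rose in the CRY1 line (log2 fold change 1.19 ± 0.19 SE, adjusted p = 0.00678). Mx1 was read at 3.77 and 3.07 CPM in CPN-/-, 2.05 and 0.584 CPM in the CRY1 line and 7.79 and 7.97 CPM in the CRY2 line. The CRY1 libraries were the lowest and the CRY2 libraries the highest, with no overlap between any of the lines. Mx1 was 5.82-fold lower in the CRY1 than in the CRY2 line (log2 fold change -2.54 ± 0.42 SE, adjusted p = 0.00926), while neither line passed against CPN-/- (log2 fold change -1.34 with CRY1, adjusted p = 0.0661, and 1.20 with CRY2, adjusted p = 0.124). In the DESeq2 Wald test Mx1 passed both, lower with CRY1 (adjusted p = 0.0125) and higher with CRY2 (adjusted p = 0.0471). The Mx1 and Mx2 transcripts share 843 aligned bases at 95.3% identity.

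Samd9l, a factor against poxviruses, was at 53.0 and 38.6 CPM in CPN-/-, 90.5 and 86.3 CPM with CRY1 and 49.9 and 49.3 CPM with CRY2. It rose over CPN-/- (log2 fold change 0.95 ± 0.15 SE, adjusted p = 0.00717) and over the CRY2 line (log2 difference 0.84, adjusted p = 0.0135). Cmpk2, a mitochondrial nucleotide kinase, was scarce at 0.660 and 0.652 CPM, 1.63 and 1.27 CPM and 1.14 and 1.37 CPM in the order CPN-/-, CRY1 and CRY2. Both CRY lines lay above CPN-/-, and the CRY1 line passed (log2 fold change 1.14 ± 0.26 SE, adjusted p = 0.0210; not in the DESeq2 Wald test) where the CRY2 line did not (log2 fold change 0.93, adjusted p = 0.103); the CRY lines overlapped. Isg20, an RNA exonuclease, had the lowest adjusted p of any member in the CRY2 line. It stood at 6.95 and 10.5 CPM in CPN-/-, 7.75 and 7.49 CPM with CRY1 and 3.23 and 3.04 CPM with CRY2. The CRY2 libraries lay below all others, 2.77-fold under CPN-/- (log2 fold change -1.47 ± 0.22 SE, adjusted p = 0.0114), and the CRY1 line exceeded the CRY2 line by 1.28 on the log2 scale (adjusted p = 0.0110).

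The IFITM proteins hold viruses back at the membrane, and none of their 3 genes was higher in a CRY line at the threshold. Ifitm3 and Ifitm2 were abundant. Ifitm2 was read at 177 and 208 CPM in CPN-/-, 142 and 126 CPM with CRY1 and 160.3 and 191 CPM with CRY2. It fell in the CRY1 line (log2 fold change -0.52 ± 0.14 SE, adjusted p = 0.0343), but shares 268 of its 655 exon bases with a second annotated gene on the same strand. With the length trend removed its log2 fold change was -0.16 and did not pass (adjusted p = 0.194). Ifitm3 was at 186 and 240.2 CPM, 197 and 166 CPM and 126 and 144 CPM in the order CPN-/-, CRY1 and CRY2, lowest in the CRY2 libraries without passing (log2 fold change -0.66, adjusted p = 0.0594), though it passed there in the DESeq2 Wald test (adjusted p = 0.0035) and with the length trend removed (log2 fold change -0.41, adjusted p = 0.0120). Ifitm1 had 18 and 15 counts in CPN-/-, 8 and 5 in the CRY1 line and 9 and 7 in the CRY2 line, and its fall in the CRY1 line (log2 fold change -1.54 ± 0.37 SE, adjusted p = 0.0249) rests on those few counts and did not hold in the DESeq2 Wald test. Bst2 (tetherin, which holds budding virus at the cell surface) was at 105 and 158 CPM in CPN-/-, 185 and 144 CPM with CRY1 and 128 and 131 CPM with CRY2. The CPN-/- libraries of Bst2 lay so far apart that they enclosed the CRY2 libraries, and no comparison passed. With the length trend removed Bst2 was higher in the CRY1 line than in CPN-/- (log2 fold change 0.68, adjusted p = 0.00217, from 0.32 without that step). In that setting Bst2 was also higher than in the CRY2 line (log2 difference 0.44, adjusted p = 0.0181).

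The guanylate-binding protein genes, GTPases that attack the vacuoles of intracellular pathogens, lie together on chromosome 3. None of the 3 rose. Gbp2 was read at 16.4 and 18.7 CPM in CPN-/-, 16.5 and 13.8 CPM in the CRY1 line and 11.8 and 10.7 CPM in the CRY2 line. The CRY2 libraries were the lowest, and Gbp2 fell there (log2 fold change -0.64 ± 0.14 SE, adjusted p = 0.0451). Gbp3 and Gbp7 had log2 fold changes of -0.38 and -0.43 with CRY2 and of 0.06 and -0.12 with CRY1, none past the threshold.

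Parp9, Dtx3l and Parp14 were the role group in which every member rose in the CRY1 line over both other lines. PARP9 and DTX3L form a complex that joins ADP-ribosylation to ubiquitin transfer, and PARP14 is an ADP-ribosyltransferase; the genes are neighbours on chromosome 16 (Parp14 at chr16:35831892-35871518, Dtx3l at chr16:35926515-35939027 and Parp9 at chr16:35938470-35972621). Parp9 was read at 33.9 and 31.4 CPM in CPN-/-, 83.5 and 68.8 CPM in the CRY1 line and 33.9 and 34.8 CPM in the CRY2 line. The CRY1 libraries were set apart by more than the spread within any line, at 2.33 times CPN-/- (log2 fold change 1.22 ± 0.12 SE, adjusted p = 0.00128) and 2.22 times CRY2 (log2 fold change 1.15 ± 0.12 SE, adjusted p = 0.00176). Dtx3l was at 19.3 and 14.0 CPM, 35.6 and 32.3 CPM and 17.6 and 17.8 CPM in the order CPN-/-, CRY1 and CRY2. Its log2 fold change was 1.02 ± 0.16 SE over CPN-/- (adjusted p = 0.00655) and 0.94 over the CRY2 line (adjusted p = 0.0105). Parp9 and Dtx3l overlap on opposite strands in 458 exon bases, and the strand setting of the counting is not given in the sources used here. Parp14 was at 23.1 and 16.4 CPM in CPN-/-, 38.7 and 32.2 CPM with CRY1 and 12.4 and 10.8 CPM with CRY2. The 3 lines did not overlap, and CRY2 was the lowest. Parp14 rose over CPN-/- with CRY1 (log2 fold change 0.84 ± 0.19 SE, adjusted p = 0.0200), exceeded the CRY2 line by 3.06 times (log2 fold change 1.61 ± 0.19 SE, adjusted p = 0.00281), and did not pass between the CRY2 line and CPN-/- (log2 fold change -0.77, adjusted p = 0.0682), although it was called lower there in the DESeq2 Wald test (adjusted p = 0.00724) and with the length trend removed (adjusted p = 0.00133).

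Of the 5 remaining members, Rtp4 and Xaf1 rose. Rtp4, a chaperone of membrane receptors, was at 13.3 and 15.3 CPM in CPN-/-, 28.5 and 23.0 CPM with CRY1 and 14.2 and 13.8 CPM with CRY2 (log2 fold change 0.85 ± 0.14 SE, adjusted p = 0.00797; log2 difference from CRY2 0.88, adjusted p = 0.00877). Xaf1, a partner of the apoptosis inhibitor XIAP, was at 66.3 and 77.6 CPM, 114 and 93.1 CPM and 72.3 and 69.4 CPM in the order CPN-/-, CRY1 and CRY2. Its rise was the smallest of the 19 (log2 fold change 0.53 ± 0.13 SE, adjusted p = 0.0312) and its level was higher than with CRY2 (log2 difference 0.55, adjusted p = 0.0349). Ifi27 had the highest CPM of any member, 300.3 and 436 CPM in CPN-/-, 448 and 384 CPM with CRY1 and 279 and 306 CPM with CRY2. Its span (chr12:103434189-103440245) lies within that of Ifi27l2a (chr12:103433873-103443680). How far reads are uncertain between these genes was not tested. The CPN-/- libraries overlapped both other lines, and no comparison passed. With the length trend removed Ifi27 was higher in the CRY1 line than in CPN-/- (log2 fold change 0.50, adjusted p = 0.00321, from 0.18 without that step). Against the CRY2 line Ifi27 also passed in that setting (log2 difference 0.58, adjusted p = 0.00192) and in the DESeq2 Wald test (0.52, adjusted p = 0.0449). Ifi35 did not pass either (log2 fold change 0.34 with CRY1 and 0.05 with CRY2) until the length trend was removed (0.60 with CRY1, adjusted p = 0.00170), and 290 of its 1727 exon bases face an antisense gene. Rtp4 shares 296 of its 2131 exon bases with a second gene on the same strand, so its reads are uncertain to that extent. Ifi44 had 17 and 15 counts in CPN-/-, 13 and 5 in the CRY1 line and 19 and 23 in the CRY2 line, and was lower in the CRY1 than in the CRY2 line (log2 fold change -1.52 ± 0.40 SE, adjusted p = 0.0438), a difference that did not hold in the DESeq2 Wald test. Per kilobase of transcript, the members at the highest level in CPN-/- were Ifi27 (377 CPM per kilobase), Ifitm3 (314), Ifitm2 (294) and Bst2 (166), while Oas2, with the greatest rise, had 0.376. None of these 4 was called higher in a CRY line by the main test, but the call for Ifi27 and Bst2 turned on the length setting, as given above.

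Within the CRY1 line the 2 libraries differed over the members as a group. Replicate 1 was above replicate 2 for 38 of the 40 members, with a median log2 difference of 0.30, whereas it was above for 51.5% of all tested genes. In CPN-/- replicate 1 was above for 17 of the 40 members (52.2% of all genes) and in the CRY2 line for 12 of 40 (49.5%). Whether culture, RNA preparation or sequencing lay behind the gap in the CRY1 line was not tested. Without CRY1 replicate 1 the median log2 fold change of the members over CPN-/- was 0.29 and 6 members were called (4 higher, 2 lower), and without CRY1 replicate 2 the median was 0.70 and 11 were called (11 higher). Of all genes, 4.74% and 4.64% were called in these fits. Of the 23 calls, 5 were kept without replicate 1 (Irf1, Irf7, Oas2, Parp9 and Usp18) and 10 without replicate 2 (Ifih1, Irf7, Irf9, Mx2, Oas1a, Oas2, Parp9, Rtp4, Stat2 and Usp18); the calls lost had adjusted p from 0.0509 to 0.224 and from 0.051 to 0.251. In these fits a line with 1 library is assumed to vary like the others.

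**Figure D3:**
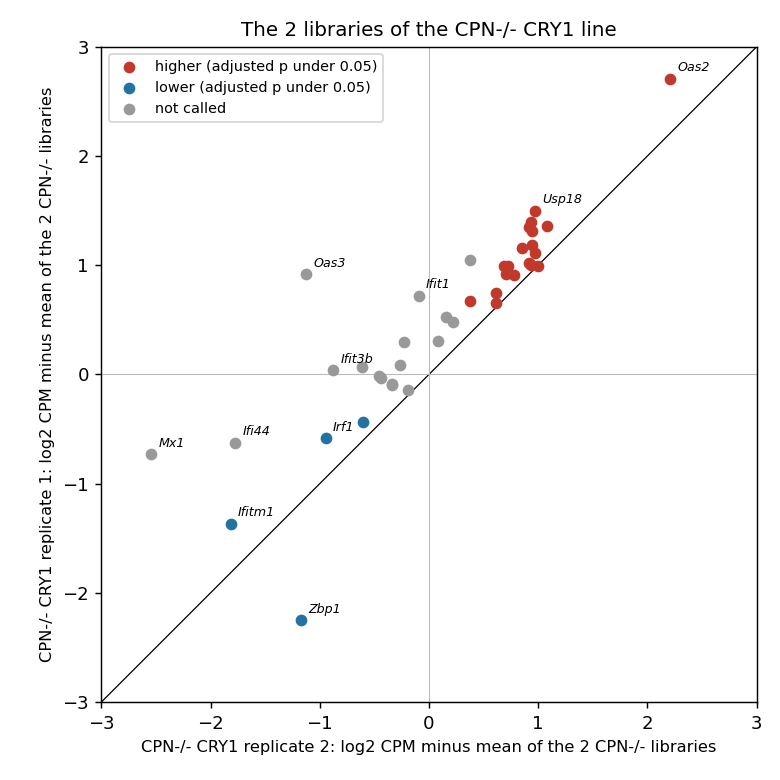
Log2 CPM minus the CPN-/- mean for each member in the CRY1 replicate 2 library (x axis) and the replicate 1 library (y axis), with the line of equality. All but 2 of the 40 points, Zbp1 and Ifit2, lie above the line, so replicate 1 gives the higher value for nearly every member.

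The CPN-/- libraries also bear on the counts. The log2 difference of replicate 1 from replicate 2 in CPN-/- rose with transcript length across genes (Spearman's rho 0.66 over 12480 genes, which are not independent replicates), against -0.20 in the CRY1 line and 0.27 in the CRY2 line. With each library's trend with length removed, 23 members were higher and 4 lower in the CRY1 line, where 21.6% of all genes were higher and 16.8% lower, and 25 were higher and 3 lower against the CRY2 line, where 15.2% of all genes were higher and 15% lower. Without CPN-/- replicate 1 or 2, 25 and 26 members were called in the CRY1 line beside 63% and 44.1% of all genes, 22 of the main 23 in either case, with Usp18 lost (adjusted p = 0.0775 and 0.0527). In the CRY2 line 20 members (10 higher) and 12 members (5 higher) were called without CPN-/- replicate 1 or 2, beside 56.4% and 22.1% of all genes. Without CRY2 replicate 1 or 2, 0 members were called, while 1.37% and 1.41% of all genes were. With 1 library left out at a time, the log2 fold changes in the CRY2 line ran from -0.80 to -0.71 for Irf1, from -2.19 to -2.05 for Zbp1, from -1.74 to -1.14 for Isg20 and from -0.73 to -0.53 for Gbp2. Of the 17 calls between the CRY lines, Parp9 and Parp14 were kept whichever library was left out, 3 calls were kept without CRY1 replicate 1 (with Mx1), 8 without CRY1 replicate 2, and 2 without either CRY2 library, in fits that called 3.32% to 3.42% of all genes. Without CPN-/- replicate 1 or 2, 15 and 16 were kept.

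The median of some chromosomes was shifted in the CRY1 line, and members sit on some of them. Over genes that are not members, the median log2 fold change of CRY1 over CPN-/- was 0.31 on chromosome 19, 0.27 on chromosome 16, -0.28 on chromosome 3 and -0.36 on chromosome 15, and lay between -0.13 and 0.11 on the others. The IFIT genes are on chromosome 19, the PARP9 neighbours, the Mx genes and Rtp4 on chromosome 16, and the GBP genes and Ifi44 on chromosome 3. Of the 26 members outside these chromosomes, 13 were higher and 4 lower in the CRY1 line, with a median log2 fold change of 0.58. Of all tested genes 11.2% were higher and 13.1% lower. Of the 6 members on chromosome 16, 5 were higher, with a median of 0.94 beside 0.27 for its other genes. The share called among those other genes was not taken. With the chromosome median taken off each gene, 18 members were higher and 5 lower (9.2% and 10.6% of all tested genes). Parp9 then kept a log2 fold change of 0.95 (adjusted p = 0.00359) and Dtx3l one of 0.76 (adjusted p = 0.0204), while Parp14 no longer passed (0.57, adjusted p = 0.0704). Between the CRY lines, where chromosomes 19 and 16 stood at 0.46 and 0.34 and chromosome 3 at -0.41, 6 of the 17 calls were lost with the chromosome median taken off. They were Ifit2 (log2 difference 0.11, adjusted p = 0.704), Oas1a, Oasl2, Dtx3l, Rtp4 and Ifi44 (adjusted p from 0.0535 to 0.134 for the last 5). The part of gene copy number or of clone in these shifts was not tested.

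**Figure D4:**
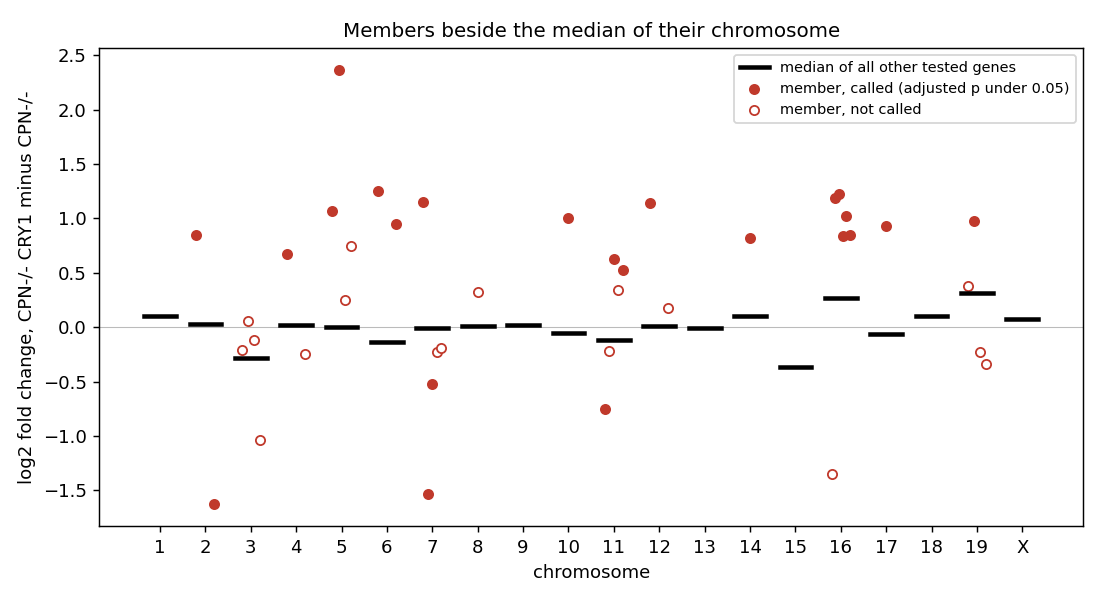
Log2 fold change of each member in the CRY1 line over CPN-/- (y axis) by chromosome (x axis), with a black bar at the median of all tested genes of that chromosome that are not members. Called members (filled) stand above their bar on chromosomes 2, 4, 5, 6, 7, 10, 11, 12, 14, 16, 17 and 19, and below it on 2, 7 and 11.

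The interferon genes listed had few or no counts, and interferon genes outside the list were not looked at. Of 10 ligand genes, 8 had 0 counts in every library, among them Ifnb1, the Ifna genes listed and Ifng. A count of 0 does not tell a very low level from none. Ifne had at most 6 counts and Ifnk at most 1 in any library. Of 14 genes for receptors, kinases, STATs and their inhibitors, 2 rose in the CRY1 line and 12 did not pass. The share that rose was 14.3%, near the 11.2% of all tested genes. Jak2, a kinase of the interferon gamma receptor, and Il10rb, a chain of the interferon lambda receptor, rose by 0.65 (adjusted p = 0.0103) and 0.51 (adjusted p = 0.00917) on the log2 scale. They lie on chromosomes 19 and 16, and stood 0.34 and 0.25 above the medians of those chromosomes. In the CRY2 line the receptor genes Ifnar2 and Ifngr2 fell (log2 fold changes -0.45 and -0.72). Ifnlr1, the other chain of the interferon lambda receptor, also fell there, with 22 and 15 counts in CPN-/-, 37 and 25 in the CRY1 line and 2 and 0 in the CRY2 line (adjusted p = 0.0213). Between the CRY lines, 6 of the 14 were higher with CRY1 and 0 lower (42.9% higher, against 7.72% of all tested genes). They were Ifnar1, Ifnar2, Ifngr2, Il10rb, Jak2 and Ifnlr1, by 0.44, 0.39, 0.85, 0.65, 0.79 and 4.50 on the log2 scale. Ifnar1, Ifnar2, Ifngr2 and Il10rb lie on chromosome 16, whose median there was 0.34, and stood 0.09, 0.05, 0.51 and 0.30 above it. The inhibitor genes Socs1, Socs3, Ptpn2 and Ptpn6 passed in no comparison.

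Of 14 tested genes for nucleic acid sensing and IRFs, 1 fell in the CRY1 line and 13 did not pass. In the CRY2 line 2 fell and 12 did not pass. The shares that fell were 7.14% and 14.3%, against 13.1% and 4.08% of all tested genes. Sting1, the adaptor of cytosolic DNA sensing, fell in both lines, from 9.81 and 11.3 CPM to 6.06 and 5.58 CPM with CRY1 and 5.62 and 3.85 CPM with CRY2 (adjusted p = 0.0206 and 0.0186). Irf5 fell in the CRY2 line from 3.80 and 4.26 CPM to 0.955 and 0.852 CPM (log2 fold change -2.15 ± 0.20 SE, adjusted p = 0.00172) and was at 4.93 and 4.38 CPM with CRY1. Mavs, Tbk1 and Irf3, the chain from RIG-I and MDA5 to the interferon genes, passed in no comparison (log2 fold changes 0.28, 0.10 and -0.08 with CRY1).

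Of 33 tested genes of a further list of interferon-induced genes, 10 rose and 4 fell in the CRY1 line, and 1 rose and 4 fell in the CRY2 line. Between the CRY lines, 11 were higher and 4 lower with CRY1. Of all tested genes, 11.2% rose and 13.1% fell with CRY1, 2.58% and 4.08% with CRY2, and 7.72% and 8.57% were higher and lower between the lines. The 4 that fell with CRY1 (12.1%) and the 1 that rose with CRY2 (3.03%) were near those shares. Genes known above all as targets of interferon gamma were among those that rose with CRY1. Tgtp1, Irgm1 and Irgm2, GTPases of cell-autonomous immunity, rose by 2.56, 1.58 and 1.05 on the log2 scale (adjusted p = 0.00172, 0.000315 and 0.00478), while Gbp6 and Iigp1 fell (log2 fold changes -1.72 and -1.73) and Igtp did not pass (0.37). Nlrc5, the activator of the class I antigen presentation genes, was at 6.26 and 5.18 CPM in CPN-/-, 21.4 and 21.0 CPM with CRY1 and 1.65 and 1.70 CPM with CRY2. It rose with CRY1 (log2 fold change 1.88 ± 0.13 SE, adjusted p = 0.000375) and fell with CRY2 (log2 fold change -1.77 ± 0.16 SE, adjusted p = 0.00182). Sp100, a nuclear body protein, also rose with CRY1 (1.51, adjusted p = 0.00408) and fell with CRY2 (-2.58, adjusted p = 0.00359); Sp100 and Tgtp1 have near-identical copies in the mouse genome, so their reads are uncertain. Ly6e and Lgals3bp fell in the CRY1 line (-0.95 and -0.73). Ly6e, on chromosome 15, was at -0.59 from the median of its chromosome. Ifi27l2a was the gene of the list that rose in the CRY2 line (1.6, adjusted p = 0.0125). Its span holds that of Ifi27, as given above.

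**Figure D5:**
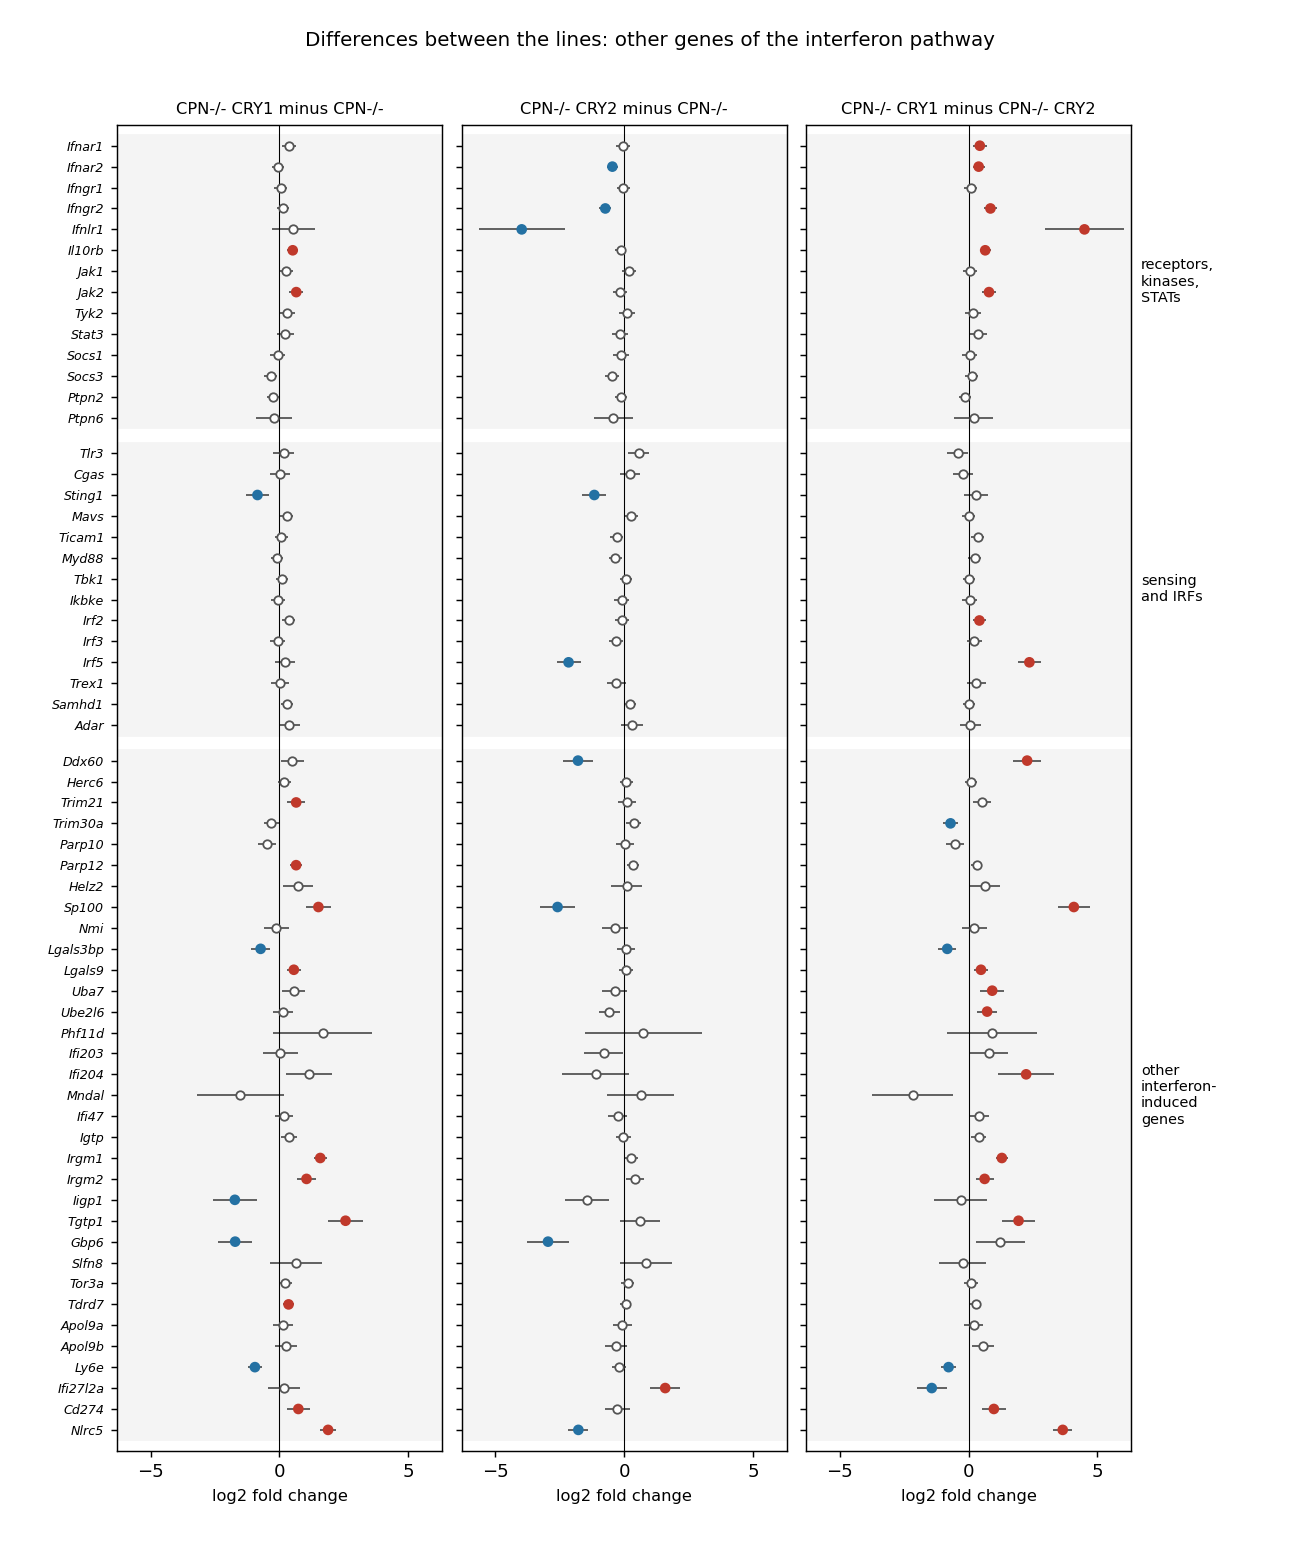
Log2 fold change (x axis) of 61 further tested genes of the pathway in the 3 comparisons, with 95% intervals from the edgeR fit, in the same colours as the plot of the members. In the left panel 12 genes are higher and 5 lower, in the middle panel 1 and 9, and in the right panel 19 and 4. As shares these are 19.7% and 8.2%, 1.64% and 14.8%, and 31.1% and 6.56%. Over all tested genes they are 11.2% and 13.1%, 2.58% and 4.08%, and 7.72% and 8.57%.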

How the data were processed

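RNA of 3 mouse fibroblast lines, 2 libraries each, was measured as polyadenylated, strand-specific libraries. The authors deposited raw counts per gene for each library; per the paper's methods and the labels, reads were mapped to mm10 with STAR and counted with featureCounts, while the annotation and the strand setting are not given in the sources used here. Genes took their names from the reference tables by NCBI Gene identifier. Counts were fitted as deposited with edgeR 4.0.16 in R 4.3.3 (robust quasi-likelihood, TMM factors 0.991 to 1.01, filterByExpr), all 6 libraries in 1 model by line, which kept 14069 of 27179 genes. P-values were two-sided and adjusted by Benjamini-Hochberg over all tested genes, with a threshold of 0.05. Intervals are 95%, and SE was taken from the size of each log2 fold change and its F statistic. The 2 libraries of a line are separate RNA preparations, so p-values measure the spread between preparations, and intervals cover neither clone nor passage. Totals of 25957409 to 36106949 counts leave genes of few counts imprecise.

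All members are named, and those called in any comparison, with the most abundant of each role group, are described in full. The members, the further gene lists and the tests were chosen with earlier results of these data known. Alternatives were 3 other scalings, no filter on low counts, DESeq2 1.42.0 (Wald test), a replicate block, fits of 4 libraries, stricter thresholds, removal of the trend with transcript length (loess, span 0.5) or of the chromosome median, and each library left out in turn. The code was tested on simulated counts. Transcripts were compared by BLAST+ 2.17.0 (at least 95% identity over 150 bases). Promoters are RefSeq sequences of GRCm38.p6. A few genes of the further lists are not reported here.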

Additional observations from a re-analysis of the deposited data

Results flagged for a closer look

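The direct test of the CRY1 against the CRY2 line, edgeR's quasi-likelihood test with adjustment over all tested genes, is also the test of whether the change from CPN-/- differed between these lines, and it passed for 17 of the 40 members. The change in the CRY1 line minus that in the CRY2 line, on the log2 scale, was 1.02 for Irf7 and 0.54 for Irf9 among the transcription factors, and 0.71 for the sensor gene Ifih1. It was 0.59 for Ifit2, 0.72 for Oas1a, 1.66 for Oas2 and 0.98 for Oasl2. It was 1.13 for Usp18, 1.28 for Isg20 and 0.84 for Samd9l. The chromosome 16 genes Parp9, Parp14, Dtx3l and Rtp4 had differences of 1.15, 1.61, 0.94 and 0.88, and Xaf1 had 0.55. Mx1 and Ifi44 had differences of -2.54 and -1.52, below zero where the other 15 were above. With the chromosome median taken off, Ifit2, Oas1a, Oasl2, Dtx3l, Rtp4 and Ifi44 no longer passed.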

How the results depend on the processing

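Across 17 alternatives, 0 of the 44 calls on members changed sign and 5 were kept throughout: Irf7, Oas2 and Parp9 between the CRY1 line and CPN-/-, and Parp9 and Parp14 between the CRY lines. The main counts of called members, 23 for CRY1 against CPN-/-, 4 for CRY2 against CPN-/- and 17 for CRY1 against CRY2, stayed within 1.5 times under the other scalings, no filter, the DESeq2 Wald test and the chromosome median. An adjusted p under 0.01 left 13, 0 and 6, and a log2 change of at least 1 left 11, 2 and 8, as both settings can only remove calls. With the length trend removed, CRY2 against CPN-/- had 13 (16% of all genes) and CRY1 against CRY2 had 28 (30.3%). With only the 4 libraries of the comparison, CRY1 against CRY2 had 28 (49.7% of all genes). Outside chromosomes 3, 15, 16 and 19 it had 10 of 26 members, all higher, where 7.72% of all tested genes were higher. Leaving out each library in turn gave 6 to 26, 0 to 20 and 2 to 28, while calls over all genes ran from 4.64% to 63%, 1.37% to 56.4% and 3.32% to 48.4%. Without either CRY2 library, Ifitm1, Ifitm2, Xaf1 and Zbp1 were lost from CRY1 against CPN-/-, and Cmpk2 without replicate 2. Without either CRY1 library, Gbp2 and Zbp1 were lost from CRY2 against CPN-/-. The causes of these changes were not tested. With the replicate number as a block the counts were 25, 5 and 17. Gbp2 (CRY2 against CPN-/-) and Ifi44 (CRY1 against CRY2) were lost. Oasl2 and Mx1 (CRY1 against CPN-/-), Parp14 and Ifitm3 (CRY2 against CPN-/-) and Stat2 (CRY1 against CRY2) were gained. Same-numbered libraries deviated together with correlations of -0.08, 0.14 and -0.03, and the main fit did not pair them. Whether they share a batch was not tested. With 2 libraries a line, low-count members such as Zbp1, Ifitm1, Oas3 and Ifi44 are the least certain.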
